A study of Mus musculus with 14 samples.

Results

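The transcripts followed here are 36 mouse genes of ATF4 and the amino acid response, chosen as a list of gene symbols. The list was chosen with earlier results of these data known. All 36 were found by symbol among 40853 gene identifiers. Averaged over the 14 libraries, 34 of them reached 1 TPM (a transcript level scaled for gene length and for the library's total), as did 12927 genes in all. The other two were Gdf15, a secreted stress cytokine, at no more than 1.38 TPM in any library, and Cbs, the enzyme that condenses homocysteine with serine, at no more than 0.234 TPM. The 34 are 6 transcription factors, 5 feedback and stress regulators, 2 secreted or surface proteins, 8 amino acid transporters, 6 enzymes of serine and one-carbon metabolism and 7 other enzymes of amino acid or glutathione metabolism.

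RNA came from αTN4-1, a mouse lens epithelial line transformed by a viral T antigen, kept as 7 stable lines under neomycin. Their labels are Vector, WT-CREB, KCREB and R314A-CREB, then S133A-CREB and S133A-KCREB, and last S133A/R314A-CREB. Lists of 7 values below follow this order. CREB activates genes through the cAMP response element in their DNA. S133A takes away a serine phosphorylated by protein kinase A, R314A changes the leucine zipper region that CRTC coactivators contact, and KCREB is a form that does not bind DNA. Every line gave 1 control library and 1 library from cells that received TGFβ at 20 ng/mL in serum-free medium over 24 h. Whether control cells were also without serum is not stated, so TGFβ and serum withdrawal cannot be told apart. Whether a line is 1 clone is not stated and no condition was repeated within a line, so the p-values measure the spread between lines.

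Lens markers were present: 9 of 11 had a mean of at least 1 TPM, among them Pax6 and Cryab, while Foxe3 and Gja1 were at or near 0. The 11 summed to between 5678 and 12552 TPM in control libraries and between 4256 and 7778 TPM with TGFβ. Most of this was Vim, at 4960 to 10649 TPM in control and 3572 to 6771 TPM with TGFβ. Cryab had 310 to 1674 and 244 to 529 TPM, and Pax6 63.9 to 328 and 54.4 to 187 TPM. Markers of other cell types summed to much less: 2.34 to 14.3 TPM for 5 macrophage genes, 0.159 to 3.38 TPM for 4 endothelial genes, 4.06 to 28.4 TPM for 4 skeletal muscle genes and 0.705 to 1.70 TPM for 4 pigment cell genes. The 5 neuronal and retinal genes reached 7.47 TPM in control and 71.6 TPM with TGFβ, nearly all of it Tubb3. Adgre1, Myod1 and Myog were listed at 0 in all 14 libraries. The part of these markers in the TGFβ results was not tested. Creb1, the gene of the overexpressed protein, ranged from 4.43 to 38.3 TPM and lay below Vector in 4 of the 6 lines labelled for CREB, so each line is named only as labelled. The coverage that stands for 1 FPKM, a measure of depth, ran from 5.05 to 10.08 across libraries.

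ATF4 is a basic leucine zipper factor whose translation increases when kinases phosphorylate the initiation factor eIF2, as on amino acid shortage or stress of the endoplasmic reticulum, which together is called the integrated stress response. With C/EBP partners it activates genes that bring amino acids into the cell, make serine, asparagine and proline, charge tRNAs and supply one-carbon units, along with genes such as Trib3 and Ppp1r15a that dampen the response. Because ATF4 is controlled largely in translation, its mRNA level does not give the amount of protein. In fibroblast-like cells exposed to TGFβ, ATF4 targets are known to supply glycine and proline for collagen.

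The DNA element through which ATF4 and C/EBP factors act on many of these genes is TGATGNAA, searched on both strands, so that it also appears below as TTGCATCA or TTACATCA. RefSeq promoters (GRCm38.p6, 250 bases before to 50 after each start) were on hand for 30 of the 36 members, and 9 of these 30 held it, against 3.97% of 32851 promoters and 4.51% of 27025 genes, and 2.69% of the genes tested here. The 30-base stretches around the sites are shown because these are the members whose start region carries the response element itself. Letters run 5′ to 3′ on the gene's strand, and capitals mark the element on either strand.
Asns, chr6:7693214-7693243, minus strand: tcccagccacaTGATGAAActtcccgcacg
Slc7a11, chr3:50443651-50443680, minus strand: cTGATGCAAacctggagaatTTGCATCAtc
Pycr1, chr11:120643833-120643862, minus strand: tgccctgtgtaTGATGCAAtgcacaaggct
Trib3, chr2:152344028-152344057, minus strand: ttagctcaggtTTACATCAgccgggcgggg
Chac1, chr2:119351038-119351067, plus strand: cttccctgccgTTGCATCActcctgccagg
Pck2, chr14:55540152-55540181, plus strand: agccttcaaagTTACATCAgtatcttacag
Nupr1, chr7:126625562-126625591, minus strand: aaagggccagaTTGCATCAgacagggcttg
Slc1a4, chr11:20332699-20332728, minus strand: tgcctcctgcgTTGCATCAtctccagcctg
Vldlr, chr19:27216809-27216838, plus strand: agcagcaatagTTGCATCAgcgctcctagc

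Slc7a11 carries the element as a facing pair, and the other 8 carry it once. In Vldlr it stands in an alternative promoter of the table. The element of CREB itself, TGACGTCA, which reads the same on both strands, was in 1 of the 30, Ppp1r15a, at bases -12 to -5 from its start, against 1.79% of promoters, 2.03% of genes and 3.6% of the genes tested here. Its part TGACG, or CGTCA on the other strand, which also lies within TGACGTCA, was in 11 of 30, Atf4 among them, against 20.8% of promoters and 23% of genes, and 35.6% of the genes tested here, which is close to the members' share. A match is only a run of letters in this window, and no binding was measured.

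**Figure D1:**
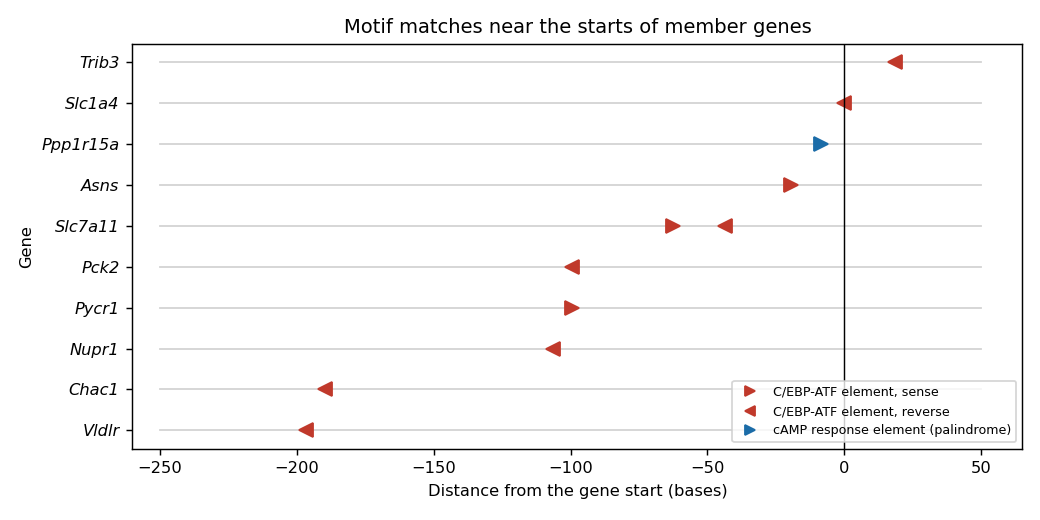
Position of motif matches relative to the gene start in bases (x axis) for the 10 members with a match (y axis); red triangles are the C/EBP-ATF element and point right for the sense strand and left for the reverse, and the blue triangle is the palindromic cAMP response element. Slc7a11 has 2 red marks, and Ppp1r15a is the only gene with a blue one.

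The first comparison was TGFβ against control within the 7 lines, by limma on log2(TPM + 1) with the line as a block. The members shifted upward as a group: 26 of the 34 rose (adjusted p under 0.05 over 12927 genes), where 24.1% of all genes tested rose. As the list was chosen with earlier results known, comparing it with all genes describes it and does not test it as a group. Only Atf5, Vldlr and Phgdh fell, 3 of 34, where 21.4% of all genes fell. Ddit3, Nupr1, Slc7a5, Slc1a4 and Psat1 did not pass, so 29 of 34 passed in either direction, where 45.4% of all genes did. The median log2 difference was 0.40 over the members and 0.02 over all genes. The shifts were moderate in size, with log2 differences from -0.37 in Atf5 up to 1.05 in Ddit4 and 1.07 in Stc2. In 19 members TGFβ lay above control in all 7 lines, as in 18.5% of all genes, and in Phgdh alone it lay below in all 7, as in 15.9%. The range of the 7 TGFβ libraries overlapped that of the 7 controls in every member, so 0 of 34 were separated, where 2.35% of all genes were. In bulk RNA a change in level per cell cannot be told apart from a change in the share of cells that express a gene. The share of TPM from mitochondrially encoded genes was lower with TGFβ in 6 of 7 lines (5.59% to 10.8% in control, 5.75% to 8.64% with TGFβ), and with these genes taken out of the scaling the counts were 26 and 3 as well. Without the filter on low TPM 19 rose and 2 fell, where 10.2% and 8.56% of all genes did. Sesn2, Slc7a11, Aldh1l2 and Aldh18a1 then missed the threshold (limma adjusted p 0.0501 to 0.0636), as did Atf5, Cebpg, Eif4ebp1 and Slc3a2 (0.0711 to 0.104).

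**Figure D2:**
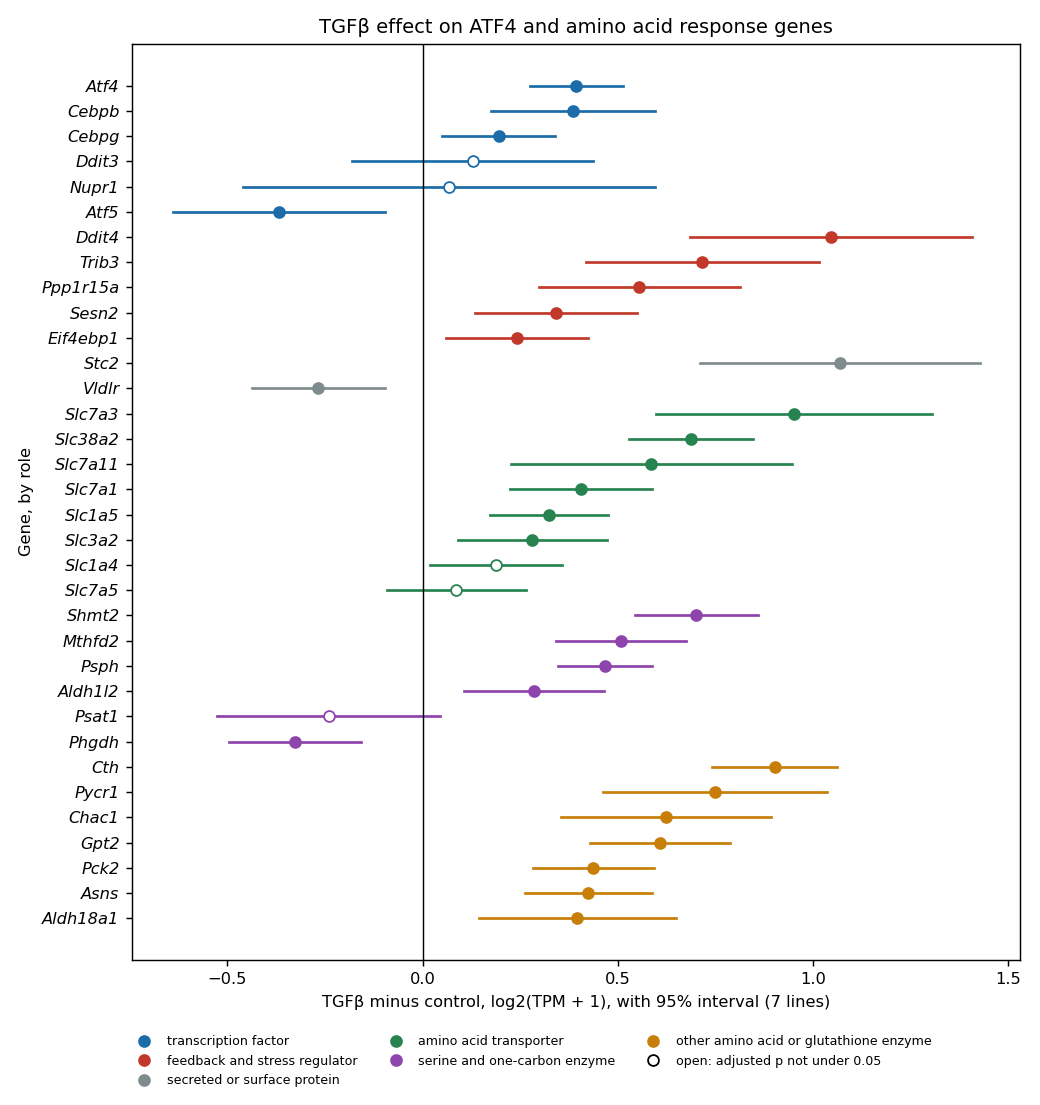
TGFβ minus control on the log2(TPM + 1) scale (x axis) for the 34 tested members (y axis, coloured by role); points are limma estimates over 7 lines, bars 95% intervals, and open points did not pass an adjusted p of 0.05. Points run from -0.37 for Atf5 to 1.07 for Stc2, with 26 filled points to the right of 0 and 3 to the left.

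Among the transcription factors 3 of 6 rose, 1 fell and 2 did not pass, with a median log2 difference of 0.16. Atf4 itself (chr15:80139385-80141746, plus strand, GRCm39, the build of all gene positions below) was abundant. Its control levels were 602, 687, 525, 525, 749.7, 575 and 635 TPM in the line order given above. The TGFβ values were 768, 854, 764, 809.9, 911, 704 and 814 TPM. Every line was higher with TGFβ, and the highest control line, S133A-CREB, still exceeded 1 of the TGFβ libraries, that of S133A-KCREB. The level was 614 ± 83.1 TPM in control and 803 ± 67.0 TPM with TGFβ (mean ± SD, n = 7), and the log2 difference was 0.39 ± 0.05 (SE, n = 7 lines, 95% interval 0.27 to 0.51, limma adjusted p = 0.000628).

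Cebpb, a C/EBP factor that pairs with ATF4 (chr2:167530835-167532352), stood at 54.2, 113, 69.3, 71.7, 202, 78.5 and 81.8 TPM in control. After TGFβ the levels were 67.4, 129, 130.4, 101, 297, 94.1 and 81.6 TPM. S133A-CREB was far above the other lines in both states, and S133A/R314A-CREB was the line without a higher TGFβ value. Cebpb rose by 0.39 ± 0.09 (SE, n = 7 lines, 95% interval 0.17 to 0.60, limma adjusted p = 0.00899) on the log2 scale. Cebpg, a C/EBP protein that lacks an activation domain, rose by 0.19 ± 0.06 (adjusted p = 0.0332), a call lost without any one of the first 5 lines (adjusted p 0.0526 to 0.0892).

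Atf5, a factor related to ATF4 and under like translational control (chr7:44461680-44466082), moved the other way. Its control levels were 230.5, 172, 234, 256, 277, 330.3 and 205 TPM. In treated cells it had 162, 215, 217, 204, 208, 186 and 124 TPM. It was lower in 6 lines and higher in WT-CREB, and its log2 difference was -0.37 ± 0.12 (SE, n = 7 lines, 95% interval -0.64 to -0.10, limma adjusted p = 0.0325). The call is a weak one: without the Vector line adjusted p was 0.0766, and it also missed 0.05 without R314A-CREB or without any one of the 3 lines with S133A. Atf5 shares 571 bases with Nup62 on the opposite strand (mean 93.2 TPM), and strand use in the counting is not given, so its values are uncertain.

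Ddit3, which encodes CHOP, the factor of prolonged stress, gave 0.13 ± 0.14 (adjusted p = 0.473). It was higher with TGFβ in 3 lines and lower in 4, and its ends overlap Mars1 (71 bases) and Mbd6 (77 bases) on the other strand, which makes its values uncertain. Cebpg, Nupr1, Ppp1r15a, Vldlr, Shmt2 and Pycr1 also overlap genes of the opposite strand, but ones that averaged 3.74 TPM or less. Nupr1, a small stress-induced chromatin protein and the most abundant member, was the most divided. Its control levels were 1396, 394, 1209.7, 813, 964, 775 and 1450.2 TPM. Under TGFβ it measured 2949, 323, 2951, 693, 742, 583 and 962 TPM. It was about doubled in Vector and KCREB, with log2 differences of 1.08 and 1.29, and lower in each of the other 5 lines, by -0.23 to -0.59. Over the 7 lines it gave 0.07 ± 0.24 (adjusted p = 0.836). Vector and KCREB do not share an S133, K or R314A label that the other lines lack. Nupr1 was picked for its library values after these were seen.

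**Figure D3:**
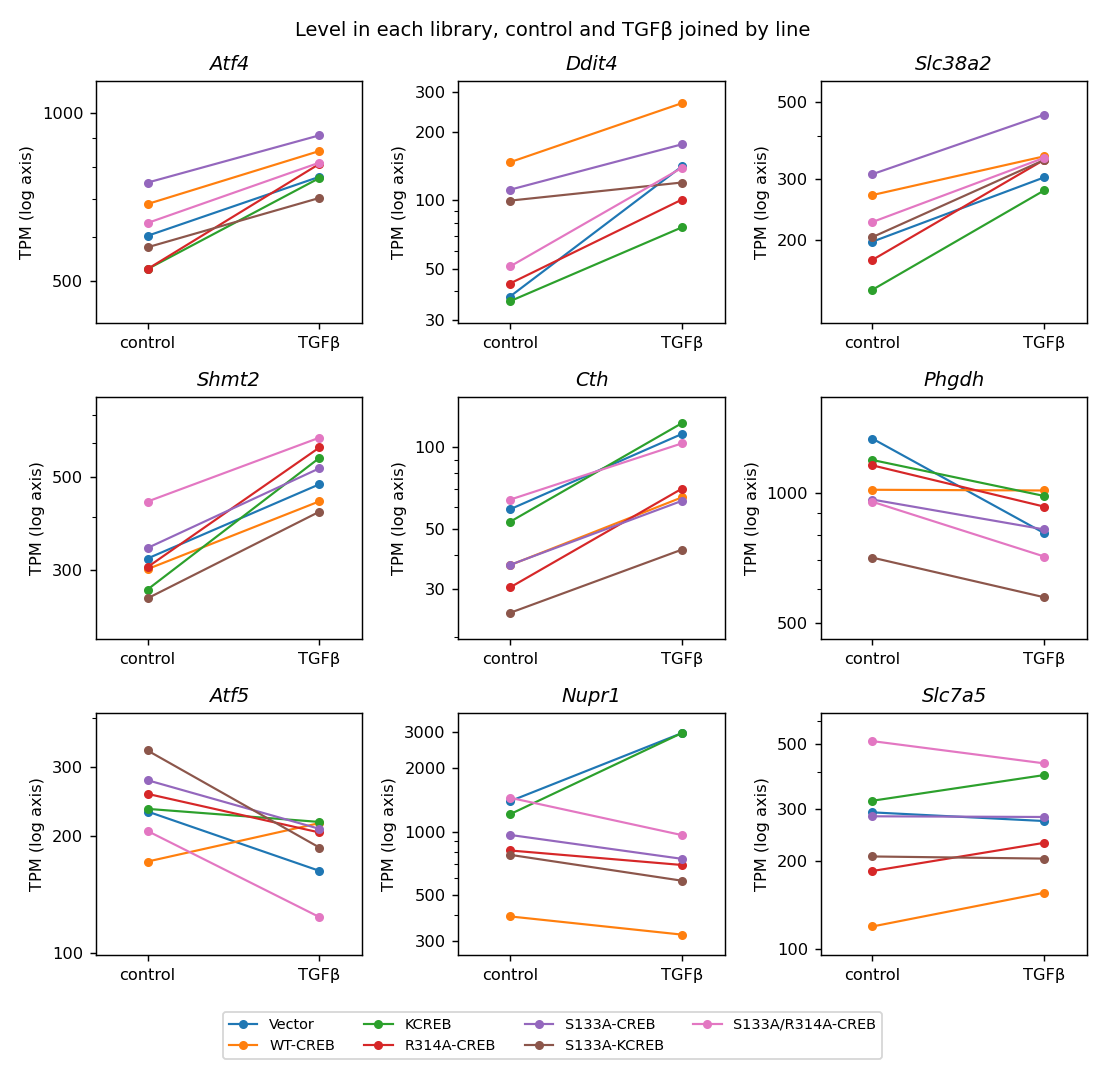
Level in TPM (y axes, log scale) of 9 members in each control and TGFβ library (x axes); each coloured line joins the 2 libraries of 1 stable line. Atf4, Ddit4, Slc38a2, Shmt2 and Cth slope upward in all 7 lines and Phgdh downward in all 7, while Atf5, Nupr1 and Slc7a5 slope both ways.

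All 5 feedback and stress regulators rose, with a median log2 difference of 0.56. Ddit4, an inhibitor of mTORC1 also called REDD1 (chr10:59785497-59787592), had 37.9, 147, 36.2, 43.2, 111, 99.8 and 51.3 TPM in control. Its TGFβ libraries had 141, 267, 76.2, 101, 176, 119.8 and 139 TPM. The lines started from levels 4.07-fold apart, and WT-CREB was highest in both states. The log2 difference was 1.05 ± 0.16 (SE, n = 7 lines, 95% interval 0.69 to 1.41, limma adjusted p = 0.00105), the largest in this role, and ran from 0.26 in S133A-KCREB to 1.87 in Vector. Trib3, a pseudokinase that binds ATF4 and restrains it (chr2:152179345-152185980), had 73.7, 60.0, 74.1, 44.7, 105, 50.1 and 105 TPM in control. The TGFβ values were 125, 96.6, 158, 119.7, 148, 73.6 and 109.9 TPM. It was higher in all 7 lines, least in S133A/R314A-CREB, and rose by 0.72 ± 0.13 (SE, n = 7 lines, 95% interval 0.42 to 1.01, limma adjusted p = 0.00255).

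Ppp1r15a, or GADD34, the phosphatase subunit that reverses eIF2 phosphorylation (chr7:45172341-45175692), had 45.3, 38.1, 55.2, 32.4, 43.6, 49.1 and 43.8 TPM in control. After TGFβ the levels were 53.5, 42.4, 87.5, 77.4, 67.1, 78.6 and 55.7 TPM. R314A-CREB had the lowest control value and the widest gap. Ppp1r15a rose by 0.56 ± 0.11 (SE, n = 7 lines, 95% interval 0.30 to 0.81, limma adjusted p = 0.00410). Sesn2, a leucine sensor upstream of mTORC1, rose by 0.34 ± 0.09 (adjusted p = 0.0145), and Eif4ebp1, the translation repressor 4E-BP1, by 0.24 ± 0.08 (adjusted p = 0.0358). The Eif4ebp1 call was lost without any one of the first 5 lines, with adjusted p up to 0.0928.

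Of the secreted and surface proteins Stc2, a glycoprotein hormone of calcium and phosphate balance (chr11:31309441-31320061), had 4.72, 14.5, 9.98, 9.47, 11.8, 4.89 and 18.3 TPM in control. In treated cells it had 8.83, 26.0, 23.8, 42.9, 30.2, 7.50 and 33.6 TPM. All 7 lines were higher, and R314A-CREB went from the third lowest level to the highest. Stc2 rose by 1.07 ± 0.16 (SE, n = 7 lines, 95% interval 0.71 to 1.43, limma adjusted p = 0.000938), the largest log2 difference of any member. Vldlr, the very low density lipoprotein receptor (chr19:27190070-27231631), had 4.88, 31.2, 12.7, 7.75, 7.84, 2.59 and 39.0 TPM in control. Under TGFβ it measured 4.23, 31.6, 8.42, 6.61, 6.64, 1.92 and 28.0 TPM. Its control levels spanned 15.1-fold between lines, much more than its fall with TGFβ of -0.27 ± 0.08 (SE, n = 7 lines, 95% interval -0.44 to -0.10, limma adjusted p = 0.0176). Without S133A/R314A-CREB adjusted p was 0.0560.

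Of the 8 amino acid transporters 6 rose and none fell, with a median log2 difference of 0.36. Slc38a2, the SNAT2 carrier of small neutral amino acids (chr15:96585267-96597609), had the lowest adjusted p of the role. Its levels were 198, 270.0, 144, 176, 310.2, 204 and 226 TPM in control. Its TGFβ libraries had 304, 349, 279, 342, 461, 341 and 346 TPM. It was higher in all 7 lines and rose by 0.69 ± 0.07 (SE, n = 7 lines, 95% interval 0.53 to 0.85, limma adjusted p = 0.000220). Slc7a11, the cystine and glutamate exchanger xCT (chr3:50319385-50403947), had 28.8, 14.5, 34.0, 7.0, 14.6, 9.52 and 25.9 TPM in control. The TGFβ values were 32.5, 22.4, 82.0, 17.4, 25.7, 10.1 and 26.5 TPM. KCREB and R314A-CREB more than doubled, while S133A-KCREB and S133A/R314A-CREB hardly differed. The overall rise was 0.58 ± 0.16 (SE, n = 7 lines, 95% interval 0.23 to 0.94, limma adjusted p = 0.0152).

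Slc7a3, a carrier of cationic amino acids (chrX:100122752-100134058), had 0.512, 23.3, 0.381, 4.54, 0.516, 0.692 and 4.24 TPM in control. After TGFβ the levels were 3.37, 41.1, 0.680, 15.6, 2.14, 1.99 and 6.88 TPM. It lay under 1 TPM in 4 control libraries and its control levels spanned 61.1-fold, with WT-CREB on top. It rose by 0.95 ± 0.16 (SE, n = 7 lines, 95% interval 0.60 to 1.30, limma adjusted p = 0.00148), but it shares 1086 bases with Snx12 on the same strand (mean 113 TPM against 7.57 TPM), so reads may be split between them. Slc7a1, the main cationic carrier, rose by 0.41 ± 0.08 (adjusted p = 0.00356), the glutamine carrier Slc1a5 by 0.32 ± 0.07 (adjusted p = 0.00438), and Slc3a2, the heavy chain shared by Slc7a5 and Slc7a11, by 0.28 ± 0.08 (adjusted p = 0.0228). The Slc3a2 call was lost without any one of KCREB, R314A-CREB and S133A-KCREB (adjusted p 0.0531 to 0.0584). Slc1a4, a carrier of alanine, serine and cysteine, gave 0.19 ± 0.08 (adjusted p = 0.0671), and Slc7a5, the large neutral amino acid carrier LAT1, gave 0.09 ± 0.08 (adjusted p = 0.397). Without Vector, Slc1a4 passed with 0.24 (adjusted p = 0.0273).

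The serine and one-carbon enzymes split along the pathway. Phgdh, the first enzyme of serine synthesis, fell, Psat1, the next, did not pass, and Psph, the last, rose, as did all 3 mitochondrial folate enzymes listed, so that 4 of 6 rose and 1 fell. Phgdh (chr3:98220487-98247285) had 1335, 1016, 1191, 1158, 965, 708 and 953 TPM in control. In treated cells it had 806, 1012, 983, 929, 822, 573 and 712 TPM. Vector had the highest control value and the widest gap, and WT-CREB hardly differed. The difference was -0.33 ± 0.08 (SE, n = 7 lines, 95% interval -0.49 to -0.16, limma adjusted p = 0.00687), lower in 7 of 7 lines. Phgdh stood behind 3 others by size in its role, and its library values are given because it was the 1 member of the role that fell. Psat1 gave -0.24 ± 0.13 (adjusted p = 0.150), lower in 5 lines and higher in KCREB and S133A-CREB. Without S133A-CREB it passed, with -0.34 (adjusted p = 0.0374).

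Psph (chr5:129842622-129864318) had 127, 92.5, 101, 88.0, 104, 61.4 and 124 TPM in control. Under TGFβ it measured 165, 135, 167, 126, 139, 82.9 and 149 TPM. S133A-KCREB was lowest in both states. Psph rose by 0.47 ± 0.05 (SE, n = 7 lines, 95% interval 0.35 to 0.59, limma adjusted p = 0.000323). Shmt2, which splits serine into glycine and a one-carbon unit in mitochondria (chr10:127352992-127358313), had 319, 301, 269.6, 305, 338, 257 and 436 TPM in control. Its TGFβ libraries had 479.5, 437, 554, 586, 523, 413 and 619 TPM. All controls but that of S133A/R314A-CREB lay below all 7 TGFβ libraries. Shmt2 rose by 0.70 ± 0.07 (SE, n = 7 lines, 95% interval 0.54 to 0.86, limma adjusted p = 0.000197). Mthfd2, the mitochondrial methylene-tetrahydrofolate dehydrogenase (chr6:83282686-83302926), had 204, 160.1, 106, 129.8, 159, 159.6 and 210.0 TPM in control. The TGFβ values were 295, 207, 195, 217, 214, 198 and 259 TPM. It was higher in all 7 lines and rose by 0.51 ± 0.07 (SE, n = 7 lines, 95% interval 0.34 to 0.67, limma adjusted p = 0.000861). Aldh1l2, which oxidises formyl-tetrahydrofolate in mitochondria, rose by 0.29 ± 0.08 (adjusted p = 0.0165).

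All 7 other enzymes rose, with a median log2 difference of 0.61, the highest of the roles with more than 2 members. Cth, which makes cysteine from cystathionine (chr3:157599885-157630718), had 59.0, 36.7, 53.0, 30.4, 36.8, 24.5 and 64.0 TPM in control. After TGFβ the levels were 112, 65.3, 123, 70.3, 63.4, 41.9 and 103 TPM. The 7 lines differed in level but moved alike, by 0.68 to 1.19. Cth rose by 0.90 ± 0.07 (SE, n = 7 lines, 95% interval 0.74 to 1.06, limma adjusted p = 8.87e-05), the lowest adjusted p of any member. Its partner enzyme Cbs stayed near 0.

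Pycr1, the last enzyme of proline synthesis (chr11:120527591-120534602), had 15.3, 12.8, 20.4, 7.11, 15.1, 18.9 and 19.7 TPM in control. In treated cells it had 38.2, 18.8, 52.9, 12.2, 19.8, 31.1 and 25.5 TPM. KCREB and Vector had the widest gaps. Pycr1 rose by 0.75 ± 0.13 (SE, n = 7 lines, 95% interval 0.46 to 1.04, limma adjusted p = 0.00172). Chac1, which degrades glutathione (chr2:119181723-119184807), had 84.9, 93.9, 95.9, 57.0, 102, 68.4 and 86.3 TPM in control. Under TGFβ it measured 129, 135, 175, 148, 116, 96.3 and 111 TPM. R314A-CREB was lowest in control and second highest with TGFβ. Chac1 rose by 0.62 ± 0.12 (SE, n = 7 lines, 95% interval 0.35 to 0.89, limma adjusted p = 0.00297). The other 4 were Gpt2, mitochondrial alanine aminotransferase, with 0.61 ± 0.08 (adjusted p = 0.000554), Pck2, mitochondrial PEP carboxykinase, with 0.44 ± 0.07 (adjusted p = 0.00120), Asns, asparagine synthetase, with 0.42 ± 0.07 (adjusted p = 0.00176), and Aldh18a1, the first enzyme of proline synthesis, with 0.40 ± 0.11 (adjusted p = 0.0173).

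Members with the C/EBP-ATF element printed above had TGFβ differences close to those of the others. The 9 with it had a median of 0.44 and 6 rose, among them Asns, Slc7a11 and Trib3. The 19 tested members with a promoter but without it had a median of 0.40 and 15 rose. These are descriptions, with no test.

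Each line on its own has 1 library per side and so no test. The median member difference was 0.35 in Vector, 0.35 in WT-CREB, 0.70 in KCREB, 0.64 in R314A-CREB, 0.33 in S133A-CREB, 0.27 in S133A-KCREB and 0.17 in S133A/R314A-CREB. KCREB and R314A-CREB thus had the widest shift, and S133A-KCREB and S133A/R314A-CREB had the narrowest. The median over all genes stayed between -0.01 and 0.05 in every line. Members at least 2-fold higher with TGFβ numbered 8 of 34 in KCREB and 8 in R314A-CREB, where the shares of all genes averaging 5 TPM or more were 3.0% and 1.53%. They numbered 4 in Vector (2.22%), 2 in S133A-CREB (0.655%), 1 in S133A/R314A-CREB (1.60%), and 0 in WT-CREB (0.456%) and S133A-KCREB (1.42%). No member was 2-fold lower in any line, where the shares of all genes were 2.64% in Vector, 0.674% in WT-CREB, 3.58% in KCREB, 2.35% in R314A-CREB, 1.46% in S133A-CREB, 2.42% in S133A-KCREB and 2.66% in S133A/R314A-CREB. Atf4 itself had differences of 0.35, 0.31, 0.54, 0.62, 0.28, 0.29 and 0.36, highest in the same pair of lines as the medians.

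The next comparison asked whether the TGFβ response differed with the S133 label, over the 6 CREB lines in 3 pairs that share the rest of the label (neither K nor R314A, K, or R314A). The response was lower with S133A in all 34 members by the fitted estimate, as in 55.0% of all genes, with a median difference of -0.31 against -0.02 for all genes. No single member passed: 0 of 34 were called by limma, as were 0.00% of all genes, with or without the intensity trend, and the smallest adjusted p was 0.999 among members and 0.797 among all genes. At an unadjusted p under 0.05 there were 12 of 34, where 3.54% of all genes were. The median response was 0.58 in the 3 lines without S133A and 0.27 in the 3 with it. In 12 members all 3 responses with S133A lay below all 3 without it, as in 3.77% of all genes. In 18 members the S133A line was the lower in all 3 pairs, as in 12.7%. The differences ran from -0.72 (Slc7a11) to -0.07 (Slc7a3), and on simulated data this fit found 0% of genes that differed 1.5-fold and 24% of those that differed 2-fold, so differences of this size were mostly not detectable in this design.

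Fitted alone, the 3 lines with S133A gave 12 members that rose with TGFβ, where 7.94% of all genes did. At an unadjusted limma p under 0.05, 17 were higher and 4 lower, where 4649 of 12927 genes passed in either direction. By adjusted p 3 members fell, where 9.14% of all genes did. The 3 were Atf5, Phgdh and Nupr1, and the last passed here as a fall (-0.46, adjusted p = 0.0216) although it did not over all 7 lines. The 3 CREB lines without S133A gave 0 in either direction by limma, in a fit that called just 3 genes up and 8 down in all. At an unadjusted limma p under 0.05, 29 members were higher and 0 lower, where 3214 of 12927 genes passed in either direction.

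The pairs were unequal. Between WT-CREB and S133A-CREB 20 of 34 members had the lower response with S133A, with a median difference of -0.04. Between KCREB and S133A-KCREB it was 31, with a median of -0.47, and between R314A-CREB and S133A/R314A-CREB it was 33, also with a median of -0.47. Over all genes the pair medians were -0.01, -0.01 and -0.03. The lower response was thus nearly all in the K and R314A pairs, a contrast between pairs that was not tested. Creb1 also differed between these lines (control 11.6, 25.8 and 9.04 TPM without S133A, and 6.59, 34.0 and 7.92 TPM with it), and its part in the result was not tested.

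**Figure D4:**
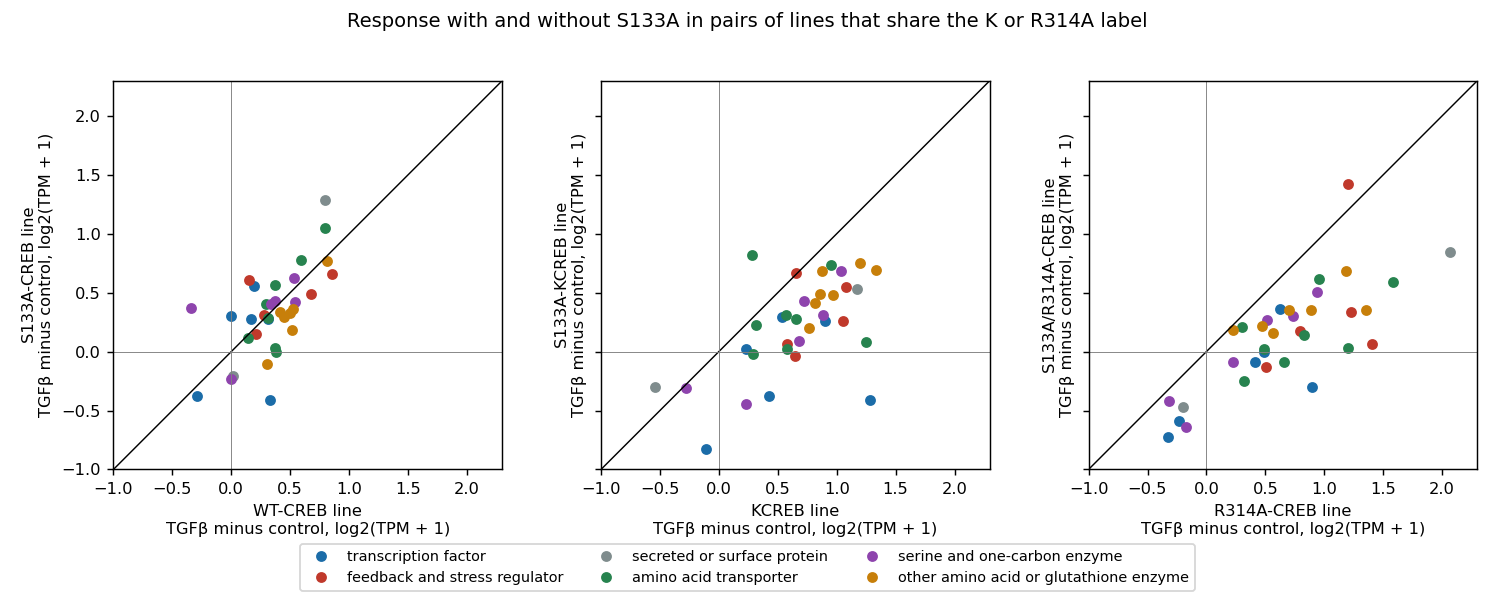
TGFβ minus control, log2(TPM + 1), in the S133A line (y axes) against its partner without S133A (x axes) for 34 members coloured by role, in 3 pairs; the diagonal marks equal responses. Points scatter around the diagonal in the WT-CREB pair (20 below) and lie almost all below it in the KCREB (31) and R314A-CREB (33) pairs.

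Atf5 had the lowest unadjusted p. Its responses were 0.33, -0.11 and -0.33 in WT-CREB, KCREB and R314A-CREB, and -0.41, -0.82 and -0.73 in their S133A partners. All 3 lines with S133A lay below all 3 without it, and the difference was -0.62 ± 0.11 (SE, 95% interval -0.89 to -0.35, unadjusted p = 0.00163, limma adjusted p = 0.999). Slc7a5, the LAT1 carrier, had responses of 0.38, 0.29 and 0.32 without S133A and -0.01, -0.02 and -0.25 with it. Slc7a5 was thus higher with TGFβ in each CREB line without S133A and slightly lower in each line with it. The difference was -0.42 ± 0.10 (SE, 95% interval -0.67 to -0.18, unadjusted p = 0.00591, limma adjusted p = 0.999). Trib3 had responses of 0.68, 1.08 and 1.40 without S133A and 0.49, 0.55 and 0.07 with it, again without overlap, a difference of -0.69 ± 0.22 (SE, 95% interval -1.24 to -0.13, unadjusted p = 0.0240, limma adjusted p = 0.999). Chac1 had responses of 0.52, 0.86 and 1.36 without S133A and 0.18, 0.49 and 0.36 with it, a difference of -0.57 ± 0.16 (SE, 95% interval -0.96 to -0.18, unadjusted p = 0.0128, limma adjusted p = 0.999). Vector, which is not in this fit, had responses of -0.50 for Atf5 and -0.10 for Slc7a5, both lower with TGFβ as in the S133A lines. For Trib3 and Chac1 the Vector responses were 0.75 and 0.60, within the range of the CREB lines without S133A. The other 8 at an unadjusted p under 0.05 were Asns, Pck2, Eif4ebp1, Slc1a4, Pycr1, Aldh18a1, Cth and Sesn2. Of these, Pck2 and Eif4ebp1 each have a library of an S133A line that is flagged below as far from the rest. Atf4 was not among them, with -0.18 ± 0.11 (SE, 95% interval -0.45 to 0.08, unadjusted p = 0.139, limma adjusted p = 0.999). These members were named by their p after it was seen.

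By role, the median response without and with S133A was 0.35 and -0.03 for the transcription factors, 0.68 and 0.37 for the feedback regulators, 0.52 and 0.22 for the transporters, 0.55 and 0.28 for the secreted and surface proteins, 0.50 and 0.24 for the serine and one-carbon enzymes and 0.73 and 0.34 for the other enzymes. It was lower with S133A in each role.

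For the level of the members, apart from the response, no difference between the S133 labels was called, in a fit that could find only large ones. On simulated data it found 0% of genes that differed 1.5-fold, 0% at 2-fold and 72.5% at 4-fold. As the mean of both libraries of a line, 0 of 34 members were called, as were 0.00% of all genes, with a smallest adjusted p of 0.809 among members. At an unadjusted p under 0.05 there was 1 of 34, Phgdh, lower with S133A by -0.43 ± 0.17 (SE, limma unadjusted p = 0.0489), where 5.81% of all genes were. In control libraries alone 27 of 34 members were higher with S133A, as were 53.5% of all genes, with a median of 0.24 against 0.02. In TGFβ libraries alone 13 were higher, as were 50.4% of all genes, with a median of -0.08 against 0.00. These are averages over the pairs, which differed. In the K pair the median member difference from Vector was -0.10 in KCREB and -0.33 in S133A-KCREB in control, and 0.20 and -0.41 with TGFβ. In the R314A pair it was -0.30 without and 0.19 with S133A in control, and -0.09 and -0.01 with TGFβ. In the WT-CREB pair it was -0.29 and 0.04 in control, and -0.31 and -0.01 with TGFβ.

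Before treatment the lines differed in these genes about as much as TGFβ moved them. On the log2 scale the median SD between the 7 control libraries was 0.36 over the members, beside a median TGFβ difference of 0.40. Over all genes these medians were 0.28 and 0.02. The second keeps its sign, so rises (24.1% of all genes) and falls (21.4%) cancel in it. It does not give the typical size of a TGFβ change over all genes. Against Vector, whose 2 libraries all 6 differences share, the median member difference in control was -0.29 in WT-CREB, -0.10 in KCREB, -0.30 in R314A-CREB, 0.04 in S133A-CREB, -0.33 in S133A-KCREB and 0.19 in S133A/R314A-CREB. With TGFβ these medians were -0.31, 0.20, -0.09, -0.01, -0.41 and -0.01. S133A-KCREB lay lowest with TGFβ, with 28 of 34 members under Vector, where 52.2% of all genes were. KCREB lay highest, with 11 under, where 51.0% of all genes were. Over all genes the medians against Vector stayed between -0.04 and 0.06 in both states.

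Genes around the members were described from 5 lists. The cytosolic aminoacyl-tRNA synthetases, which charge tRNAs, moved evenly: 16 of 18 tested rose with TGFβ and none fell (24.1% and 21.4% of all genes), led by Gars with 0.62 ± 0.06 (adjusted p = 0.000156), Tars with 0.59 ± 0.07 (adjusted p = 0.000451) and Yars with 0.43 ± 0.06 (adjusted p = 0.000559). The median was 0.37. Of the 16 eIF2 kinases, eIF2 subunits and eIF2B subunits 9 rose and 2 fell, where 24.1% and 21.4% of all genes did. The kinase of endoplasmic reticulum stress, Eif2ak3 (PERK), rose by 0.55 ± 0.07 (adjusted p = 0.000445) and the subunit gene Eif2s2 by 0.44 ± 0.06 (adjusted p = 0.000517). Those that fell were both of the GCN2 branch that senses uncharged tRNA, the kinase gene Eif2ak4 by -0.49 ± 0.07 (adjusted p = 0.000596) and Impact, whose product inhibits GCN2 activation, by -0.62 ± 0.07 (adjusted p = 0.000236). Eif2ak4 was named because the count of falls was 2.

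Of 15 other folate and one-carbon enzymes 3 rose and none fell, a share near or under that of all genes, with Tyms at 0.35 ± 0.06 (adjusted p = 0.00216), Mtrr at 0.29 ± 0.08 (adjusted p = 0.0135) and Mthfd2l at 0.22 ± 0.07 (adjusted p = 0.0258). Of 12 other amino acid transporters 4 rose and 2 fell, counts near the shares of all genes (24.1% and 21.4%). They included Slc7a6 at 0.37 ± 0.05 (adjusted p = 0.000520), Slc36a1 at -0.48 ± 0.07 (adjusted p = 0.000979) and Slc38a10 at 0.30 ± 0.05 (adjusted p = 0.00228). Of 11 other ATF, C/EBP and partner factors 5 rose and 3 fell, where 24.1% and 21.4% of all genes did. Among them were Atf6b at -0.33 ± 0.05 (adjusted p = 0.000725), Nfe2l2, the NRF2 factor of oxidative stress, at -0.54 ± 0.09 (adjusted p = 0.00126) and Cebpz at 0.34 ± 0.06 (adjusted p = 0.00131). The response was lower with S133A in 15 of 18 tRNA synthetases, 9 of 16 eIF2 genes, 10 of 15 folate genes, 6 of 12 transporters and 9 of 11 factors, where it was lower in 55.0% of all genes. The eIF2 genes and transporters were thus near the share of all genes. The list medians were -0.15, -0.05, -0.04, 0.00 and -0.06, against -0.02 over all genes. None of these medians reached the -0.31 of the members.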

How the data were processed

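RNA of 14 libraries (7 lines, 1 control and 1 TGFβ each, lines and treatments from the titles) was analysed from gene tables. Per the submitters' processing notes, GRCm39, STAR 2.7.6a, StringTie 2.0.4 and edgeR were used, with no roles given. The authors deposited TPM and FPKM, and coverage (signal) per gene, per the file headers. There are no read counts, so no count model or counting interval was used. Depth was read from coverage per FPKM. Neither strandedness nor the annotation is stated in any source used.

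Values of 1 gene symbol were summed. Genes averaging 1 TPM or more were tested on log2(TPM + 1), a scale that understates the change of low genes, with limma 3.58.1 (intensity trend) in R 4.3.3 and Benjamini-Hochberg adjustment over 12927 genes, two-sided. TGFβ was fitted with the line as a block. The S133A by TGFβ interaction was fitted on the differences of the 6 CREB lines and the S133A level on their means, both with the remaining label (none, K or R314A) as a term. The line label pairs libraries: across genes, a library's deviation from its treatment mean had r of 0.614 to 0.845 with the other library of its line and at most 0.275 with those of other lines. No 2 libraries were duplicates. Tested on simulated data with 12927 genes, the TGFβ fit found 83.5% of genes changed 1.5-fold and 94.5% changed 2-fold, and the level fit 0% and 0%.

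Members, pathway lists and motifs were chosen with earlier results of these data known. Library values are given for Atf4 and up to 3 members per role with the largest TGFβ difference among those that passed, and 3 genes per pathway list are named by smallest p. Of 20 tRNA synthetase symbols 18 were matched, most through synonyms. Gene coordinates are those of the deposited tables (GRCm39), promoter sequences are from RefSeq on GRCm38.p6, and none were converted.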

Additional observations from a re-analysis of the deposited data

Results flagged for a closer look

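In 4 of 68 groups of 7 libraries (each tested member in control and in TGFβ) 1 library stood far from the rest, by a Dixon ratio (the gap to the nearest library over the whole range) above 0.568. Chance gives about 1 in 20 groups, so 4 of 68 is near that. The control library of S133A/R314A-CREB stood apart for a pair of genes: Eif4ebp1 was at 614 TPM against 285 to 372 TPM in the other 6 (ratio 0.654), and Gpt2 at 72.1 TPM against 24.7 to 39.0 TPM (ratio 0.577). The TGFβ library of S133A-KCREB also stood apart for a pair: Psph was at 82.9 TPM against 126 to 167 TPM (ratio 0.596), and Pck2 at 109 TPM against 163 to 215 TPM (ratio 0.589).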

How the results depend on the processing

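Each TGFβ result was recomputed with other pseudocounts, filters, scalings, without the intensity trend, without each line and with other sets of lines. Fitted without the replicate block, 8 members rose and 0 fell, where 4.99% and 4.01% of all genes did. At an unadjusted limma p under 0.05 it was 17 and 2, with 3245 of 12927 genes in either direction. Over the 3 lines with S133A 12 rose and 3 fell (7.94% and 9.14% of all genes). Over the 3 CREB lines without it 0 rose and 0 fell (0.0232% and 0.0619%). By unadjusted limma p under 0.05 these lines without S133A gave 29 and 0, with 3214 of 12927 genes in either direction. Without each line in turn 23 to 26 rose and 1 to 3 fell, the 1 being without S133A/R314A-CREB. An exact Wilcoxon signed-rank test gave 19 and 1 (18.6% and 16.0%). With 7 lines this test could pass only members that moved the same way in all 7, at its lowest adjusted p of 0.0453. Its counts thus repeat the 19 and 1 members given above as higher or lower in all 7 lines. The 3 lines with Creb1 not below Vector, a set chosen after seeing the data, gave 19 and 1 (17.3% and 14%). Apart from this limit of the Wilcoxon test, the cause of these differences was not tested, beyond the fewer lines in some fits. Without the filter on low TPM 19 rose and 2 fell (10.2% and 8.56% of all genes), with 8 calls lost. With 8 other changes (pseudocount, a filter at 5 TPM, scaling, unit or trend) 271 of 272 member values kept direction and call, the exception being Eif4ebp1 with quantile normalization. Without each line in turn 24 of 29 calls held, and Atf5, Cebpg, Eif4ebp1, Vldlr and Slc3a2 were lost at least once. Sign turned for Ddit3 (-0.13), Slc7a5 (-0.094) and Nupr1 (-0.46, adjusted p = 0.0216, a fall that passed) over the S133A lines, and for Nupr1 without Vector (-0.10) or without KCREB (-0.14), in a range of -0.14 to 0.18 over the lines left out. No member passed for the S133A interaction or level in any alternative, and 30 to 34 members kept the lower response with S133A.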

Other observations

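A few genes of the pathway lists were picked after their values were seen. Atf3, a stress factor that ATF4 is known to induce, averaged 5.17 ± 1.58 TPM in control and 14.4 ± 6.92 TPM with TGFβ (SD over 7 lines), and the log2 difference was 1.22 ± 0.21 (SE, limma adjusted p = 0.00166), higher with TGFβ in 7 of 7 lines. Slc7a2, a second carrier of cationic amino acids, went the other way from Slc7a1 and Slc7a3, from 36.5 ± 32.9 to 11.4 ± 5.25 TPM, a log2 difference of -1.37 ± 0.27 (limma adjusted p = 0.00329), lower in 7 of 7 lines. Slc6a9, the glycine carrier GlyT1, rose by 0.56 ± 0.17 (limma adjusted p = 0.0259), higher in 6 of 7 lines. Cebpd, a C/EBP factor, fell by 0.47 on the log2 scale (SE 0.14, limma adjusted p = 0.0201), lower in 6 of 7 lines.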
